A study of Mus musculus with 18 samples.

Results

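A ketogenic diet changes gene expression in the heart and in the liver, and the comparison described here asks for which genes the change was not the same in both organs. The quantity compared is the log2 fold change of ketogenic over chow in heart minus the log2 fold change of ketogenic over chow in liver. A positive difference means that a gene went further up, or less far down, in heart than in liver, and a negative one the reverse. It was computed for every gene from 12 of the 18 libraries of the series, the 12 that the labels assign to heart or liver.

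All mice were wild-type C57BL/6J, an inbred laboratory strain, and were 4 weeks old when the diets began. Hearts and livers of mice on a ketogenic diet (90% fat, 9.7% protein and 0.3% carbohydrate) were compared with hearts and livers of mice on standard chow, each after 21 days. Each of the 4 groups held 3 libraries that the labels call biological replicates, and the RNA was sequenced from stranded messenger RNA libraries. The labels name no transgene or deletion and do not say which part of an organ was taken. The title of the series concerns p53-dependent senescence in several organs, so genes of that program are given beside those of metabolism.

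On a diet with almost no carbohydrate, the liver oxidises fatty acids and turns the resulting acetyl-CoA into ketone bodies. Heart muscle takes up both fatty acids and ketone bodies and burns them, and it cannot export glucose. The nuclear receptor PPAR-alpha, which fatty acids activate, drives genes of fat oxidation in both organs. The liver is also the main site of fatty acid and cholesterol synthesis, which insulin and dietary carbohydrate stimulate. Feeding patterns reset the circadian clock of peripheral organs.

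The libraries held 16135276 to 23835383 counts. Levels are given as CPM, the count scaled to the library total times a TMM scaling factor. These factors were 1.126 to 1.304 in hearts and 0.7943 to 0.8675 in livers, so levels of heart against liver depend on this scaling. Defining markers matched the labelled organs. The 12 ventricular cardiomyocyte genes summed to between 92467 and 133202 CPM in the hearts and at most 3.53 CPM in the livers. The 12 hepatocyte genes summed to between 109148 and 180037 CPM in the livers and at most 47.1 CPM in the hearts. Ketogenic replicates 1 and 2 of heart, and likewise of liver, differed by little more than counting noise (the chi-square had a median of 0.665 for the hearts and 0.698 for the livers, against 0.455 from counting alone and 1.23 to 4.11 in the other 10 pairs within a group). The model used all 12 libraries, which treats these pairs as separate samples. Genes described here whose difference lost its call with each pair summed to 1 library (n = 2 for each ketogenic group) are named. Separate heart and liver calls of single genes in that setting are not reported here. Chow heart replicate 3 stood apart: its 7 atrial cardiomyocyte markers summed to 10583 CPM, against at most 144 CPM in the other chow hearts. Results that rest on that library are given with and without it. Nothing in the labels says that replicates came from separate cages or runs, so the p-values measure the spread between these libraries. In bulk tissue, fewer cells of a type and less RNA per cell cannot be told apart.

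The diet effect differed between heart and liver in 4886 of 14472 genes tested (33.8%; edgeR's quasi-likelihood test, adjusted p under 0.05). The difference was positive in 2578 genes (17.8%) and negative in 2308 (15.9%), and its median over all genes was -0.005. With the near-identical pairs summed to 1 library each, 3167 genes passed, 1579 of them positive, and 3154 of the 3167 were among the 4886. Scaling by total counts moved the median of all genes to -0.19, and the share of passing genes that were positive to 30.1%, against 52.8% with TMM scaling. The liver had the larger response, with 6007 genes called there (41.5%) and 3324 in heart (23.0%) in the same model. Of the 4886 genes, 2724 were called in liver only, 852 in heart only, 190 in both organs in the same direction and 334 in neither.

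The remaining 786 genes (5.43% of those tested) were called in both organs in opposite directions: 432 were higher in heart and lower in liver on the ketogenic diet (2.99%), and 354 lower in heart and higher in liver (2.45%). This count depended on which libraries and which scaling were used. Scaling by total counts gave 933 opposite genes, of which 488 were among the 786. The count was 275 with the near-identical pairs summed, all of them among the 786, and 405 or 423 without ketogenic heart replicate 1 or 2. Among 9060 genes with a mean of at least 4 CPM in each organ, 691 (7.63%) were opposite. The difference was positive in 25.5% and negative in 18.6% of these 9060 genes. The list counts further on can be read beside these shares and those over all genes. The scatter of both effects over these 9060 genes shows a cloud with little common slope.

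**Figure D1:**
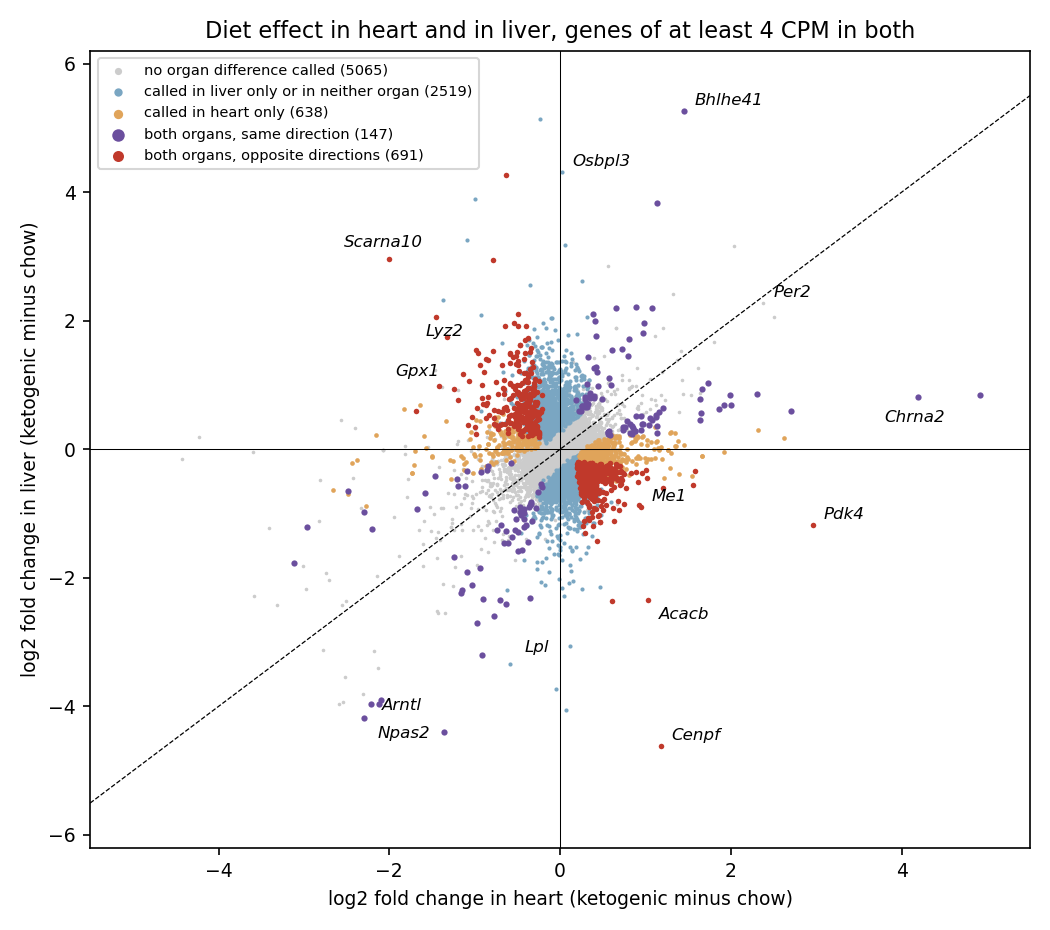
Log2 fold change of ketogenic over chow in heart (x axis) and in liver (y axis), 1 point a gene, for the 9060 genes with a mean of at least 4 CPM in each organ. The dashed line marks equal effects, the 691 genes called in opposite directions lie upper left and lower right, and 4 genes lie outside the axes.

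The 10 genes with the largest effects up in heart and down in liver included Cenpf, described further on, and the enzymes Pdk4, Acacb and Me1. Pdk4, a kinase that switches off pyruvate dehydrogenase (mm9 chromosome 6, 5433351 to 5446278, minus strand), had 2261, 2316 and 2011 CPM in ketogenic hearts, against 269.9, 275 and 298 CPM in chow hearts. In livers it had 7.45, 7.90 and 6.10 CPM on the ketogenic diet and 17.9, 14.9 and 15.6 CPM on chow. Every ketogenic heart lay above every chow heart, and every ketogenic liver below every chow liver. Its log2 fold change was 2.97 (SE 0.12) in heart and -1.18 (SE 0.13) in liver, a difference of 4.14 (SE 0.17, adjusted p = 4.55e-09 by edgeR).

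Acacb, the mitochondrial acetyl-CoA carboxylase whose product malonyl-CoA blocks fatty acid entry into mitochondria (mm9 chromosome 5, 114615527 to 114700767, plus strand), had 1002, 989.5 and 908 CPM in ketogenic hearts and 469, 508 and 439 CPM in chow hearts. The livers held 83.2, 82.5 and 79.9 CPM on the ketogenic diet, against 397, 448 and 408 CPM on chow. The ketogenic and chow groups did not overlap within either organ. Chow hearts and chow livers were near each other on the TMM scale used here, and their nearness depends on that scaling. The effects were 1.03 (SE 0.09) in heart and -2.35 (SE 0.10) in liver, with a difference of 3.39 (SE 0.13, adjusted p = 4.55e-09 by edgeR). Because Acacb carried one of the largest opposite effects, its promoter is shown, from 250 bases before to 50 bases after the annotated start (RefSeq, GRCm38.p6, chr5:114165268-114165567, plus strand). The capitals mark its only match, on the minus strand, to the nuclear receptor half-site AGGTCA, to which PPAR-alpha and related receptors bind. That motif was searched on both strands and occurs in 5340 of 32851 promoters of this length (16.3%). The E-box CACGTG has no match in it.
Acacb: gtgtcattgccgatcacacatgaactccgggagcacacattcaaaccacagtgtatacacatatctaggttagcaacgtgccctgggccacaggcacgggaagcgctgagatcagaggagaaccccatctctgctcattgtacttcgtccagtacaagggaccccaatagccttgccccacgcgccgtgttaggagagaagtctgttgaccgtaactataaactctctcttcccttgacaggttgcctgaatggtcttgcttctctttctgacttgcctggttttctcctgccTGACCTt

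Me1, the cytosolic malic enzyme that supplies NADPH for fatty acid synthesis, had 196, 197 and 206 CPM in ketogenic hearts and 107, 101 and 101 CPM in chow hearts. Its level was 224, 212 and 196 CPM in ketogenic livers, against 385, 364 and 430.3 CPM in chow livers. On the TMM scale used here, the heart and liver values overlapped on the ketogenic diet, while on chow the livers were all higher. The overlap between organs depends on that scaling. The difference was 1.85 (SE 0.12, adjusted p = 6.53e-07 by edgeR), from 0.95 in heart and -0.90 in liver.

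The 10 genes with the largest opposite effects of this kind also included Clpx, the ATPase subunit of a mitochondrial protease, at 0.62 in heart and -0.92 in liver, and Ablim1, an actin-binding protein, at 0.64 and -1.11. Pxmp4, a peroxisomal membrane protein, showed 0.68 in heart and -0.81 in liver, and Mreg, which acts in melanosome and lysosome transport, 0.92 and -0.87. Tmem150a had 0.69 in heart and -0.95 in liver. Gpr56, an adhesion receptor, had 0.75 in heart and -0.85 in liver. In each of these 6 genes the ketogenic and chow libraries did not overlap in either organ, and the difference passed with the pairs summed. The genes were picked by these same values, so this describes them and is no further support. The share of all genes without such overlap was not computed.

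Cenpf, a kinetochore protein of dividing cells, had the largest positive difference of the 10. It had 95.0, 103 and 45.5 CPM in ketogenic hearts and 40.1, 40.1 and 27.7 CPM in chow hearts, against 0.763, 1.11 and 0.318 CPM in ketogenic livers and 16.4, 22.8 and 15.5 CPM in chow livers. The 3 ketogenic hearts were spread widely, with replicate 3 near the chow values, and all 3 ketogenic livers were far under the chow livers. Its effects were 1.18 (SE 0.31) in heart and -4.62 (SE 0.50) in liver, and the difference of 5.80 passed (adjusted p = 8.23e-05 by edgeR). Without chow heart replicate 3 the heart effect was 1.03 and did not pass (adjusted p = 0.0745 by edgeR), whereas the difference did at 5.64 (adjusted p = 0.000493; 1.18e-20 to 0.00625 over all alternatives).

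**Figure D2:**
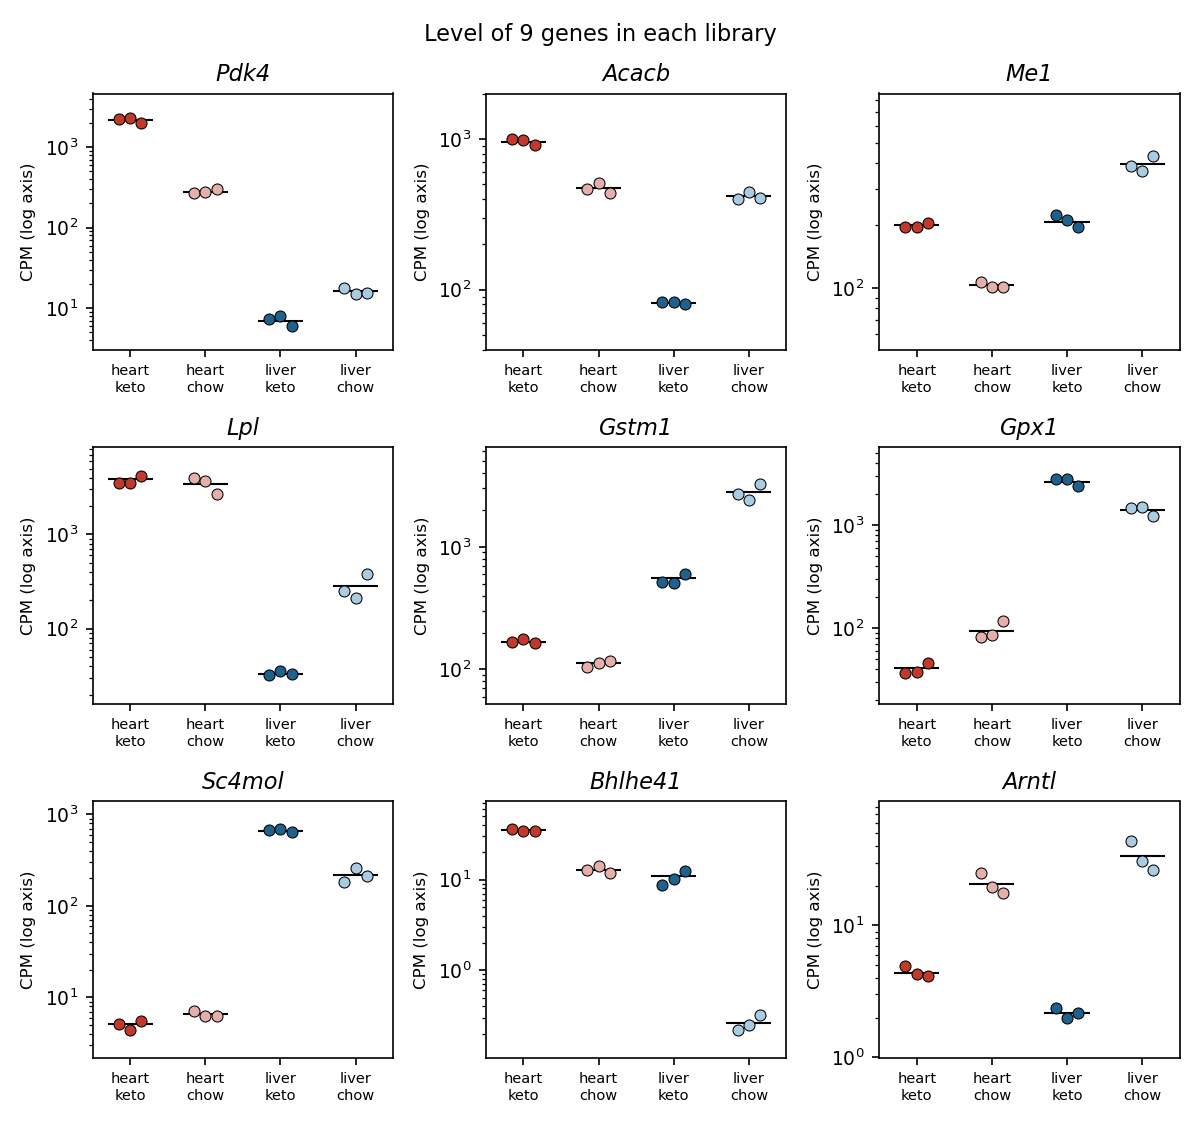
CPM of 9 genes in each library on log axes, with groups from left to right ketogenic heart, chow heart, ketogenic liver and chow liver. Points are libraries and bars are group means with the near-identical ketogenic pair averaged first (n = 2 for ketogenic and n = 3 for chow). Pdk4, Acacb, Me1 and Gstm1 moved up in heart and down in liver, and Gpx1 the other way.

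The genes that fell in heart and rose in liver were of other kinds. Gpx1, the main cytosolic glutathione peroxidase (mm9 chromosome 9, 108241411 to 108242673, plus strand), had 37.0, 37.6 and 45.8 CPM in ketogenic hearts, against 82.3, 85.7 and 117 CPM in chow hearts. The livers had 2834, 2801 and 2417 CPM on the ketogenic diet and 1456, 1506 and 1234 CPM on chow. Each ketogenic heart was under each chow heart, and each ketogenic liver over each chow liver. The effects were -1.24 (SE 0.15) in heart and 0.94 (SE 0.15) in liver, a difference of -2.18 (SE 0.21, adjusted p = 6.73e-06 by edgeR) that became -1.74 with the length trend described further on removed.

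Fgl2, a prothrombinase of macrophages and endothelium, had 46.0, 46.3 and 47.6 CPM in ketogenic hearts and 86.8, 78.9 and 143 CPM in chow hearts. Its level was 12.8, 10.9 and 7.24 CPM in ketogenic livers, against 5.27, 5 and 3.52 CPM in chow livers. Ketogenic hearts were close together and low, and chow replicate 3, with the atrial markers, was the highest. The difference was -2.31 (SE 0.37, adjusted p = 0.000888 by edgeR). Tpm2, a tropomyosin, differed by -3.51 and Sulf1, which trims sulfates from heparan chains, by -2.25. Gng10, a G protein gamma subunit, differed by -2.53. The interferon-induced gene Ifi27l2a differed by -3.08 and its neighbour Ifi27l1 by -2.12. Without chow heart replicate 3 the heart effect of Ifi27l1 was -0.60 and did not pass (adjusted p = 0.0722 by edgeR), and its difference was -1.68 (adjusted p = 0.000789; 3.04e-05 to 0.0404 over all alternatives, with differences of -2.35 to -1.25). These are related genes, and the authors' counting could split reads between them. Hist2h4, a replication-dependent histone gene with near-identical copies, differed by -2.41, and the Cajal body RNA gene Scarna10 by -4.96. These genes are 348 and 71 bases long, a length class that is described further on. With the length trend removed the liver effect of Hist2h4 was 0.35 and did not pass (adjusted p = 0.120 by edgeR), and its difference was -1.46 (adjusted p = 0.000663; 8.33e-15 to 0.00131 over all alternatives).

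Most of the listed genes of fat burning were called higher in each organ. Several of those with a difference, however, were called higher in heart only or in liver only. Of 24 mitochondrial beta-oxidation genes, 20 were called higher in heart (11.1% of all genes) and 19 in liver (19.4% of all genes), and none lower in either. The difference was positive in 9, negative in 2 and did not pass in 13, and its median over the 24 was 0.35, beside shares of 17.8% positive and 15.9% negative over all genes. Hadha, the alpha subunit of the trifunctional protein of long-chain oxidation, had 2643, 2654 and 2577 CPM in ketogenic hearts and 1051, 1074 and 756 CPM in chow hearts. In livers Hadha had 563, 570.5 and 538 CPM on the ketogenic diet and 567, 539 and 483 CPM on chow, so that the groups overlapped there. The difference was 1.38 (SE 0.19, adjusted p = 9.04e-05 by edgeR). Acaa2, the mitochondrial thiolase, showed the same pattern, with 1.10 in heart and 0.00 in liver (difference 1.10, adjusted p = 0.000177 by edgeR).

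The 2 members with a negative difference were Hsd17b10, a short-chain hydroxyacyl-CoA dehydrogenase, at 0.02 in heart and 1.37 in liver, and Echs1, the short-chain enoyl-CoA hydratase, at -0.14 and 0.90. Hsd17b10 has an exon length of 911 bases and kept a difference of -0.82 with the length trend removed, against -1.35 as measured. Cpt1a, the gatekeeper of long-chain fatty acid import, rose by 0.96 in heart and by 0.84 in liver, and its difference of 0.11 (SE 0.15) did not pass (adjusted p = 0.616 by edgeR).

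Among 39 targets of PPAR-alpha, 12 had a positive and 6 a negative difference, with a median of 0.29. The shares over all genes were 17.8% and 15.9%, and over genes of at least 4 CPM in both organs 25.5% and 18.6%. Slc25a42, a mitochondrial carrier of coenzyme A, rose in heart only, by 1.34 against 0.06 in liver, and Angptl4, an inhibitor of lipoprotein lipase, rose by 1.64 in heart and by 0.45 in liver (difference 1.18, adjusted p = 0.000461 by edgeR). Acaa1a, a peroxisomal thiolase, went the other way, with -0.04 in heart and 1.09 in liver. Of 31 peroxisomal genes, 9 had a positive and 6 a negative difference. These counts are near the 25.5% and 18.6% over genes of at least 4 CPM in both organs. Scaling by total counts gave 7 and 8 and turned the median to -0.10, against 0.08. Peroxisomal genes with a difference included Cat, the catalase of peroxisomes, at 1.16 in heart and -0.02 in liver. Pex6, an import ATPase, was at 0.72 and -0.15, and Decr2, a peroxisomal dienoyl-CoA reductase, at -0.01 and 0.93.

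Lpl, lipoprotein lipase, which frees fatty acids from circulating lipoproteins for uptake, had one of the largest positive differences. It had 3497, 3546 and 4177 CPM in ketogenic hearts and 4013, 3667 and 2665 CPM in chow hearts, against 32.0, 35.5 and 33.2 CPM in ketogenic livers and 251, 211 and 379 CPM in chow livers. The heart groups overlapped, and the ketogenic livers all lay far under the chow livers. The difference was 3.18 (SE 0.29, adjusted p = 4.64e-06 by edgeR), nearly all from the liver effect of -3.06.

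Of 10 genes of ketone body metabolism, 2 had a positive and 3 a negative difference, beside 17.8% and 15.9% over all genes. The median of the 10 was -0.59 (2 and 5 without chow heart replicate 3 and when scaled by total counts). Oxct1, the enzyme that lets muscle use ketone bodies, had 693, 723 and 840.3 CPM in ketogenic hearts and 1245, 1102 and 796 CPM in chow hearts, and at most 7.10 CPM in any liver. Its difference of -0.60 did not pass (adjusted p = 0.0758 by edgeR), and without chow heart replicate 3 it was -0.77 and passed (adjusted p = 0.00427; 0.003 to 0.727 over all alternatives). Bdh1, the hydroxybutyrate dehydrogenase, behaved alike, at -0.58 with all libraries (adjusted p = 0.260 by edgeR) and -0.89 without that one (adjusted p = 0.00085; 0.000444 to 0.831 over all alternatives). Slc16a1, the monocarboxylate carrier that moves ketone bodies and lactate, differed by 0.82.

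Of 31 genes of glucose use, 11 had a positive and 2 a negative difference, beside 17.8% and 15.9% over all genes (7 and 2 with the pairs summed). The median was 0.04, and -0.14 when scaled by total counts. Pfkm and Pfkl, the muscle and liver forms of phosphofructokinase, both moved in opposite directions: Pfkm by 0.41 in heart and -0.73 in liver, and Pfkl by 0.30 in heart and -0.61 in liver. Gpi1, which feeds them fructose 6-phosphate, was at 0.03 in heart and -0.71 in liver. Ldha, lactate dehydrogenase, went against them, at -0.41 in heart and 0.63 in liver (difference -1.05, adjusted p = 0.000839 by edgeR).

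At the entry of pyruvate into mitochondria, 5 of 13 genes had a positive and 2 a negative difference, beside 17.8% and 15.9% over all genes. The counts were 3 and 2 with the pairs summed, and 3 and 4 when scaled by total counts. Beside Pdk4, Pdk1, another pyruvate dehydrogenase kinase, rose by 1.03 in heart and had -0.15 in liver (difference 1.19, adjusted p = 4.01e-05 by edgeR). The negative ones were Brp44l and Brp44, the subunits of the mitochondrial pyruvate carrier, at -0.14 and -0.17 in heart and 1.09 and 0.78 in liver. These are short genes of 907 and 854 bases. With the length trend removed their differences were -0.70 and -0.38, against -1.23 and -0.96 as measured.

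Of 22 genes of the tricarboxylic acid cycle, 10 had a positive and 3 a negative difference, with a median of 0.34. The shares over genes of at least 4 CPM in both organs were 25.5% and 18.6%. With the pairs summed the counts were 3 and 1, and when scaled by total counts 5 and 4 with a median of 0.16. Cs, citrate synthase, had 1551, 1545 and 1639 CPM in ketogenic hearts and 1242, 1320.2 and 1018 CPM in chow hearts, against 142, 139 and 143 CPM in ketogenic livers and 199, 190 and 200.2 CPM in chow livers. Its groups did not overlap in either organ and moved apart (difference 0.88, SE 0.15, adjusted p = 0.000547 by edgeR). Idh2, the NADP-dependent isocitrate dehydrogenase, moved likewise, at 0.67 in heart and -0.35 in liver. Pcx, pyruvate carboxylase, had a negative difference of -1.38 that was -0.86 without chow heart replicate 3, which held 59.5 CPM, against 26.7 and 25.8 CPM in the other chow hearts. It did not pass with the pairs summed (adjusted p = 0.0549 by edgeR, with 5.06e-05 to 0.0991 over all alternatives).

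Signalling genes downstream of insulin and growth hormone had 12 positive and no negative differences among 31 members, beside 17.8% and 15.9% over all genes. Their median was 0.40 (8 and 0 with the pairs summed, 8 and 1 when scaled by total counts). Irs2, the insulin receptor substrate most used in liver, had 19.3, 19.1 and 19.5 CPM in ketogenic hearts and 15.6, 25 and 20.2 CPM in chow hearts, against 25.1, 24.7 and 20.8 CPM in ketogenic livers and 79.8, 73.4 and 65.7 CPM in chow livers. Its heart groups overlapped, and its level was lower in all ketogenic livers (difference 1.56, SE 0.19, adjusted p = 5.29e-05 by edgeR). Sesn3, a sestrin that FOXO factors induce, was at -1.33 and Stat5b, which carries the growth hormone signal, at -0.99 in liver, and neither passed in heart. Foxo4, a transcription factor that insulin restrains, moved in opposite directions, at 0.64 in heart and -0.44 in liver.

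Among 30 lipogenic genes, which make fatty acids and triglycerides, 9 had a positive and 5 a negative difference, beside 17.8% and 15.9% over all genes. These counts are near the 25.5% and 18.6% over genes of at least 4 CPM in both organs. The median of the lipogenic genes was -0.02 (7 and 6, with a median of -0.22, when scaled by total counts). Without chow heart replicate 3 the counts were 16 and 4 and the median 0.52. Gpam, which starts triglyceride synthesis in mitochondria, had 489, 489 and 481 CPM in ketogenic hearts and 164, 186 and 138 CPM in chow hearts, against 364, 357 and 385 CPM in ketogenic livers and 529.5, 482 and 394 CPM in chow livers. The hearts moved up and the livers slightly down (difference 1.92, SE 0.17, adjusted p = 3.87e-06 by edgeR). Fads2, the delta-6 desaturase of polyunsaturated fatty acids, went the other way, with -0.91 in heart and 0.80 in liver.

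Scd1, the stearoyl-CoA desaturase that makes oleate, is a gene whose result changed with chow heart replicate 3. That library had the highest sum of atrial markers and also the highest sum of adipocyte markers among the hearts (713 CPM). Which of these went with its Scd1 level was not tested. Scd1 had 20.4, 17.8 and 19.6 CPM in ketogenic hearts and 21.3, 22.9 and 1073 CPM in chow hearts, the last value being replicate 3. In livers it had 145, 136 and 176 CPM on the ketogenic diet, against 12565, 10405 and 13734 CPM on chow. With all libraries the difference of 2.06 (SE 1.79) did not pass (adjusted p = 0.424 by edgeR), and without chow heart replicate 3 it was 6.13 and passed (adjusted p = 2.36e-11; 9.02e-12 to 0.824 over all alternatives). The heart effect was then -0.18 and did not pass, and the liver effect -6.31.

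Cholesterol synthesis moved towards liver: 12 of 25 genes had a negative and 1 a positive difference, with a median of -0.58. With the length trend removed the counts were 11 negative and 1 positive. In liver 16 of the 25 were called higher on the ketogenic diet (19.4% of all genes) and 1 lower, and in heart 6 were called lower (11.9% of all genes) and 1 higher. Sc4mol, the sterol C4-methyl oxidase, had 5.09, 4.37 and 5.56 CPM in ketogenic hearts and 7.11, 6.26 and 6.28 CPM in chow hearts, against 674, 691 and 637 CPM in ketogenic livers and 180.4, 256 and 214 CPM in chow livers. Ketogenic livers were well above chow livers, and ketogenic hearts slightly under chow hearts (difference -2.01, SE 0.18, adjusted p = 4.55e-06 by edgeR). Idi1, the isopentenyl diphosphate isomerase, was at -0.64 in heart and 1.33 in liver, Mvk, mevalonate kinase, at -0.73 and 0.59, and Sqle, squalene epoxidase, at -1.13 and 0.65. The levels in heart were low, with at most 7.60 CPM for these 4 genes.

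Lipid droplet genes had 5 positive and 4 negative differences among 22 (8 and 3 without chow heart replicate 3, and 5 and 7 when scaled by total counts). These counts are near the 25.5% and 18.6% over genes of at least 4 CPM in both organs. Fitm1, which helps droplets bud from the endoplasmic reticulum, did not pass in heart (-0.11) and rose by 2.04 in liver, while Pnpla2, the adipose triglyceride lipase, rose by 1.13 in heart and by 0.26 in liver. Plin4, a droplet coat protein, rose in both, by 0.89 in heart and by 2.21 in liver. Cidec, which enlarges droplets, had 0.133, 0.0994 and 0.110 CPM in ketogenic hearts and 0, 0.0474 and 18.8 CPM in chow hearts, against 30.3, 36.4 and 34.6 CPM in ketogenic livers and 0.815, 0.505 and 0.812 CPM in chow livers. Cfd, which encodes adipsin, a protease made by fat cells, had 0.398, 0.646 and 0.495 CPM in ketogenic hearts and 0.0461, 0.0949 and 55.8 CPM in chow hearts, against 132, 136 and 66.3 CPM in ketogenic livers and 0.0543, 0.101 and 0.0541 CPM in chow livers. Both genes were high in every ketogenic liver and, among the hearts, in chow replicate 3. Their negative differences passed with all libraries (adjusted p = 0.0112 for Cidec and 0.00792 for Cfd by edgeR) but not without that library (adjusted p = 0.202, with 0.00463 to 0.229 over the 28 alternatives that gave a value, and 0.111, with 0.000226 to 0.111). Cidec also missed the threshold with the pairs summed (adjusted p = 0.0568 by edgeR). The 12 adipocyte markers, which include both genes, summed to 429.8 to 476 CPM in ketogenic hearts and to 713 CPM in chow heart replicate 3, against at most 425 CPM in the other chow hearts. Most of the sum in hearts came from Fabp4, at a mean of 333 CPM, with Lipe next at 62.6 CPM. Cfd and Cidec had means of 9.57 and 3.2 CPM there, so the heart sum mostly does not follow these 2 genes. The sum in livers was carried by Car3 and Pck1, which hepatocytes also express, at means of 3470 and 2270 CPM, while Lep and Retn were at 0 in all livers. Their part in these results was not tested.

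**Figure D3:**
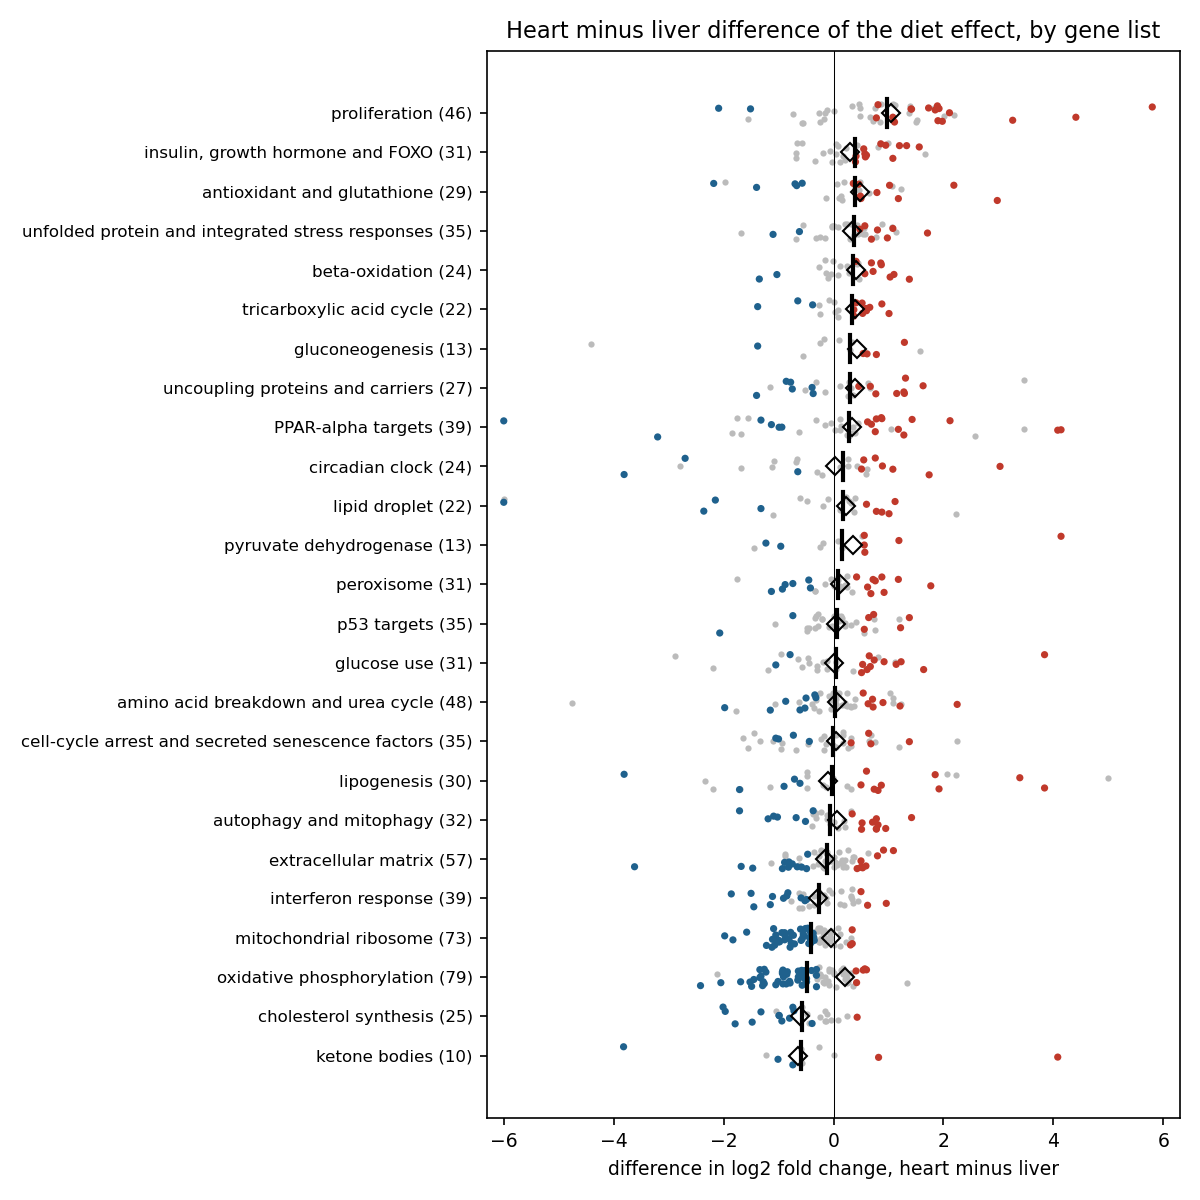
Heart minus liver difference in log2 fold change for the tested members of 25 gene lists (number in brackets), 1 point a gene, red where positive and blue where negative among those that passed, grey otherwise; values beyond 6 are drawn at 6. Black bars are list medians and open diamonds the medians with the length trend removed, which moved oxidative phosphorylation to 0.20 from -0.49 and left cholesterol synthesis at -0.61.

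The circadian clock had 7 positive and 3 negative differences among 24 genes (10 and 4 without chow heart replicate 3), with a median of 0.18. The shares over genes of at least 4 CPM in both organs were 25.5% and 18.6%, and over all genes 17.8% and 15.9%. On the ketogenic diet 13 of the 24 were called higher and 3 lower in heart (11.1% and 11.9% of all genes), and 11 higher and 7 lower in liver (19.4% and 22.1%). Bhlhe41, a repressor that limits the clock activators (mm9 chromosome 6, 145811257 to 145813860, minus strand), had 36.2, 34.4 and 34.2 CPM in ketogenic hearts and 12.7, 14.0 and 11.7 CPM in chow hearts. In livers it had 8.74, 10.1 and 12.4 CPM on the ketogenic diet and 0.217, 0.252 and 0.325 CPM on chow. Ketogenic libraries were higher without overlap in both organs, and the chow livers were near 0. The effect was 1.45 (SE 0.12) in heart and 5.26 (SE 0.21) in liver, a difference of -3.81 (SE 0.27, adjusted p = 8.30e-07 by edgeR).

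Arntl, which encodes the clock activator BMAL1 (mm9 chromosome 7, 120350979 to 120457640, plus strand), fell in both organs. It had 4.91, 4.32 and 4.13 CPM in ketogenic hearts and 25.1, 19.5 and 17.8 CPM in chow hearts, against 2.35, 1.98 and 2.16 CPM in ketogenic livers and 43.7, 30.9 and 26.3 CPM in chow livers. All ketogenic libraries lay far under the chow libraries of their organ. The effects were -2.21 (SE 0.19) in heart and -3.96 (SE 0.21) in liver, with a difference of 1.74 (SE 0.29, adjusted p = 0.000518 by edgeR).

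Npas2, a partner of BMAL1, had 4.34, 4.47 and 3.36 CPM in ketogenic hearts and 9.74, 10.8 and 10.8 CPM in chow hearts, against 0.587, 0.371 and 0.191 CPM in ketogenic livers and 10.4, 8.53 and 5.84 CPM in chow livers (difference 3.03, SE 0.40, adjusted p = 6.88e-05 by edgeR). Per2, a repressor of the clock, rose by 2.38 in heart and by 2.27 in liver, and its difference of 0.11 did not pass (adjusted p = 0.879 by edgeR); without chow heart replicate 3, where it was highest among chow hearts, it was 0.79 (adjusted p = 0.0214; 0.0214 to 1.0 over all alternatives). Csnk1d, a kinase that marks PER proteins for turnover, fell by 0.71 in liver on the log2 scale and did not pass in heart. The labels give no time of day at which organs were taken, so a shift in clock phase between the groups of an organ and a change in level cannot be told apart.

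Promoters of these 3 clock genes, chosen after their values were seen, are shown because the feedback loop acts through such sequences (RefSeq, GRCm38.p6, 250 bases before to 50 after the annotated start). The E-box CACGTG, to which BMAL1 and its partners bind, and the half-site AGGTCA, which is also the core of the site read by the clock's ROR and REV-ERB receptors, were searched on both strands and are in capitals. Bhlhe41 (chr6:145865371-145865670, minus strand) has 1 E-box, Arntl (chr7:113207261-113207560, plus strand, the second of its 2 listed starts) has 1 half-site (the window of the first start has neither motif), and Npas2 (chr1:39194022-39194321, plus strand) has neither. Among all 32851 promoters 2349 hold the E-box (7.15%).
Bhlhe41: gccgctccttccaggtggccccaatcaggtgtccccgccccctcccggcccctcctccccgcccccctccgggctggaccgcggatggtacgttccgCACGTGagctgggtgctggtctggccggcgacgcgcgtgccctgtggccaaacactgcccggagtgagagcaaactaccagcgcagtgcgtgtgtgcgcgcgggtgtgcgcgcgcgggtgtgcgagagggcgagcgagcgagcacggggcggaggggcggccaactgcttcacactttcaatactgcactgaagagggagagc
Arntl: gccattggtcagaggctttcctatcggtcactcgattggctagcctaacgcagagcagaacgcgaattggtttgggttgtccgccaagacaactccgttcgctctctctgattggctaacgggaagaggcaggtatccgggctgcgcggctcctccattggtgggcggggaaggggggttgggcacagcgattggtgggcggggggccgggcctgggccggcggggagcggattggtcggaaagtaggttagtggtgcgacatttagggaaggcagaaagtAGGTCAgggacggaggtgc
Npas2: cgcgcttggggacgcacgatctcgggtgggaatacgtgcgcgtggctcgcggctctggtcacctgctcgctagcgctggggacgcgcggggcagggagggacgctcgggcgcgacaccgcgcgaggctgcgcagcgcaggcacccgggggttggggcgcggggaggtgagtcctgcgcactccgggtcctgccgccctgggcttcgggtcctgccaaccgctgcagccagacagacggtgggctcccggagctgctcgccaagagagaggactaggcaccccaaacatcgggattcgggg

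**Figure D4:**
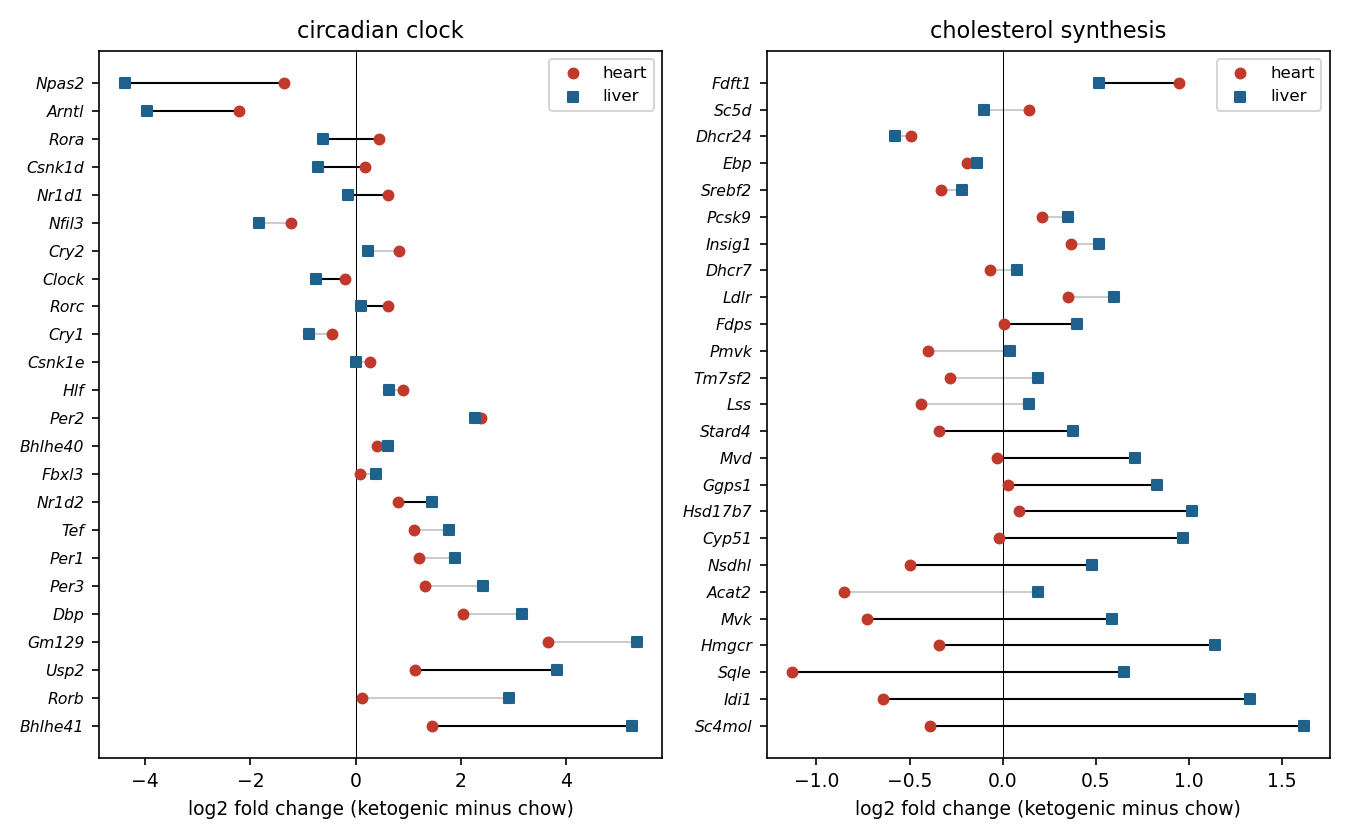
Log2 fold change of ketogenic over chow in heart (circles) and liver (squares) for the 24 tested clock genes and 25 tested cholesterol synthesis genes, ordered by the difference. Black lines join the effects of genes whose difference passed; Bhlhe41, Arntl and Npas2 moved the same way in both organs and further in liver, while Sqle, Idi1 and Mvk moved in opposite directions.

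Most cell division genes listed were called lower in both organs. Of 46 proliferation genes, 35 were called lower in heart (11.9% of all genes) and 40 in liver (22.1% of all genes); the difference was positive in 16 and negative in 2, with a median of 0.97, and 28 did not pass. Cenpf, described before, was the 1 member called higher in heart. Cdc20, an activator of the anaphase-promoting complex, fell by 1.85 in heart and by 6.26 in liver on the log2 scale (difference 4.41, adjusted p = 0.000334 by edgeR). Mki67, the division marker, had 8.90, 10 and 5.5 CPM in ketogenic hearts and 49.1, 53.7 and 19.2 CPM in chow hearts, against 4.99, 4.32 and 3.87 CPM in ketogenic livers and 52.6, 81.4 and 50.9 CPM in chow livers. Its groups did not overlap in either organ, and the difference of 1.5 (SE 0.59) did not pass (adjusted p = 0.0803 by edgeR). Without chow heart replicate 3 it was 1.16 and passed (adjusted p = 0.038; 0.00806 to 0.299 over all alternatives). Tk1 and Tyms, which supply thymidine nucleotides for DNA synthesis, were the 2 negative ones, with -2.47 and -1.80 in heart and -0.38 and -0.29 in liver. With the pairs summed, 10 differences were positive and 2 negative. Tpx2 and Iqgap3 then no longer passed (adjusted p = 0.0742 and 0.085 by edgeR, with 0.00149 to 0.119 and 0.00505 to 0.140 over all alternatives).

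The title of the series names p53. Trp53, the gene for p53, had 11.3, 9.49 and 16.3 CPM in ketogenic hearts and 22.1, 23.1 and 18.3 CPM in chow hearts, against 11.9, 14.4 and 23.6 CPM in ketogenic livers and 28.7, 33.6 and 35.7 CPM in chow livers. It was lower on the ketogenic diet in both organs without overlap, by -0.78 in heart and -0.97 in liver, and the difference of 0.20 (SE 0.35) did not pass (adjusted p = 0.708 by edgeR). Cdkn1a, the p53-induced cell-cycle inhibitor p21, had 8.06, 8.94 and 14.1 CPM in ketogenic hearts and 26.9, 30.7 and 21.5 CPM in chow hearts, against 1.82, 2.84 and 1.08 CPM in ketogenic livers and 11.6, 14.6 and 7.57 CPM in chow livers. Ketogenic samples were again the lower ones in both organs, at -1.35 in heart and -2.55 in liver, and the difference of 1.20 did not pass (adjusted p = 0.0722 by edgeR, with 0.0155 to 0.311 over all alternatives). Mdm2, the ligase that marks p53 for degradation, had a difference of -0.32 that did not pass (adjusted p = 0.0574 by edgeR), and of -0.34 that passed without chow heart replicate 3 (adjusted p = 0.0468; 0.00889 to 1.0 over all alternatives).

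Of 35 p53 targets, 5 had a positive and 2 a negative difference, beside 17.8% and 15.9% over all genes, and the median was 0.06 (3 and 2 with the pairs summed, and 3 and 6, with a median of -0.13, when scaled by total counts). Rps27l, a ribosomal protein-like p53 target, moved in opposite directions, at -0.58 in heart and 1.49 in liver. It is 464 bases long, and its difference was -1.21 with the length trend removed, against -2.07 as measured. The repair genes Xpc and Ercc5 had differences of 0.56 and 0.64. Of 35 tested genes of cell-cycle arrest and of factors secreted by senescent cells, 4 were positive and 4 negative, with a median of -0.01 (1 and 2 with the pairs summed, 1 and 6 when scaled by total counts). Igfbp7, a secreted binding protein, had 107, 103 and 99.8 CPM in ketogenic hearts and 233, 227 and 232 CPM in chow hearts, against 83.2, 83.4 and 78.1 CPM in ketogenic livers and 83.8, 89.1 and 91.0 CPM in chow livers. The lower level in ketogenic hearts (difference -1.05, SE 0.10, adjusted p = 5.26e-06 by edgeR) was not matched by a call in liver. Glb1, the lysosomal beta-galactosidase, was at -0.84 in liver and did not pass in heart.

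Of 57 matrix genes 44 were called lower and 1 higher in heart (11.9% and 11.1% of all genes), and 34 lower and 2 higher in liver (22.1% and 19.4%). The difference was positive in 8 and negative in 12, beside 17.8% and 15.9% over all genes. The median of the matrix genes was -0.11. The counts were 2 and 7 with the pairs summed, 3 and 16 when scaled by total counts, and 3 and 14 with the length trend removed. Postn, a matrix protein of fibroblasts, fell by 1.58 in heart and by 0.69 in liver, and Col4a5, a basement membrane collagen, by 1.03 in heart and by 2.11 in liver. Col6a3, a collagen VI chain, had effects of -1.21 in heart and -0.46 in liver, and Col14a1, a fibril-associated collagen, of -1.72 and -0.25. Col1a1, the main fibrillar collagen, had 240, 224 and 164 CPM in ketogenic hearts and 481, 563 and 875 CPM in chow hearts, against 16, 17.2 and 14.4 CPM in ketogenic livers and 60.5, 45.3 and 61.9 CPM in chow livers, and its difference of 0.21 did not pass (adjusted p = 0.649 by edgeR). Summed fibroblast and stellate cell markers were 3243 to 3394 CPM in ketogenic hearts and 4307 to 4844 CPM in chow hearts, and 365 to 404 CPM in ketogenic livers and 507 to 521 CPM in chow livers. In hearts this sum included Des, at a mean of 1530 CPM, which rose by 0.40. It also held matrix genes counted above, such as Col3a1 and Col1a1, at means of 784 and 425 CPM. Of the 12 markers 6 were called lower and 1 higher in heart, while Pdgfra (-0.21), Pdgfrb (-0.27) and Rgs5 (-0.19) did not pass there. The part of cell number in these results was not tested.

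Of 12 macrophage markers 7 had a negative and none a positive difference, with a median of -0.77. The count was 4 with the pairs summed, and with the length trend removed it was 5 with a median of -0.50. In heart 9 of the 12 were called lower (11.9% of all genes), and in liver 2 higher (19.4% of all genes). Lyz2, lysozyme of myeloid cells, had 73.3, 73.4 and 91.8 CPM in ketogenic hearts and 164, 142 and 159 CPM in chow hearts, against 145, 139 and 57.6 CPM in ketogenic livers and 39.9, 47.0 and 33.7 CPM in chow livers. All ketogenic hearts were low, and of the ketogenic livers the near-identical pair was high and replicate 3 close to chow. The difference was -2.46 (SE 0.42, adjusted p = 0.00168 by edgeR). Without chow heart replicate 3 the heart effect of -0.93 did not pass (adjusted p = 0.105 by edgeR), whereas the difference of -2.45 did (adjusted p = 0.00616; 5.8e-07 to 0.0371 over all alternatives). Mrc1, the mannose receptor, differed by -1.09. C1qa and C1qb, subunits of complement C1q, differed by -0.76 and -0.79, and both lost the call with the length trend removed (adjusted p = 0.146 and 0.104 by edgeR, with 0.000405 to 0.352 and 0.000351 to 0.281 over all alternatives). The summed level of the 12 markers was 308 to 316 CPM in ketogenic hearts and 487 to 566 CPM in chow hearts, and 549.6 to 842 CPM in ketogenic livers and 567 to 673 CPM in chow livers.

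Interferon response genes followed the same direction, with 12 negative and 3 positive differences among 39 (median -0.27; 17 negative and 2 positive without chow heart replicate 3). In liver 19 of the 39 were called higher on the ketogenic diet (19.4% of all genes) and 3 lower, and in heart 3 were called higher and 3 lower (11.1% and 11.9% of all genes). Irf9, a transcription factor of the interferon signal, was at -0.40 in heart and 0.43 in liver, and Isg15, a ubiquitin-like modifier, at -0.67, which did not pass, and 1.20. Psmb9, a subunit of the immunoproteasome, was at 0.18 in heart and 1.33 in liver and lost the call with the length trend removed (adjusted p = 0.107 by edgeR, with 0.000643 to 0.107 over all alternatives). Red blood cell genes differed as well: the 9 erythroid markers summed to 925 to 2176 CPM in ketogenic hearts and 3835 to 5377 CPM in chow hearts, and to 470.1 to 599 CPM in ketogenic livers and 496 to 786 CPM in chow livers. Of the 9, 3 had a negative difference, and none without chow heart replicate 3 or with the pairs summed. Hba-a1 and Hba-a2 share their reads and are 1 measurement.

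Gstm1, a glutathione S-transferase of the mu class, had 169, 178 and 165 CPM in ketogenic hearts and 105, 113 and 117 CPM in chow hearts, against 514, 508 and 600 CPM in ketogenic livers and 2721, 2389 and 3232 CPM in chow livers. It was higher in every ketogenic heart and lower in every ketogenic liver (difference 2.98, SE 0.18, adjusted p = 2.30e-07 by edgeR). Gstm2, at 0.03 in heart and -2.16 in liver, has similar sequence, and reads could be split between both. Gpx4, the peroxidase that protects membranes from lipid peroxides, was at 0.05 in heart and 1.45 in liver. Of 29 antioxidant genes, 9 were positive and 5 negative, beside 25.5% and 18.6% over genes of at least 4 CPM in both organs. The counts were 6 and 3 with the pairs summed, 5 and 6 when scaled by total counts, and 15 and 2 with the length trend removed.

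Among 32 autophagy genes, 10 had a positive and 7 a negative difference (8 and 11 when scaled by total counts). The shares over genes of at least 4 CPM in both organs were 25.5% and 18.6%. Bnip3, a receptor for removing mitochondria, had 119, 129.5 and 148 CPM in ketogenic hearts and 114, 98.0 and 89.9 CPM in chow hearts, against 464, 463 and 349.7 CPM in ketogenic livers and 88.8, 101 and 108 CPM in chow livers (difference -1.71, SE 0.18, adjusted p = 1.45e-05 by edgeR). Ketogenic samples were higher in both organs, more so in liver. Its relative Bnip3l differed by -1.02 and Atg5, needed to extend the autophagosome membrane, by -1.09. Of 35 tested genes of the unfolded protein and integrated stress responses, 7 were positive and 2 negative. The shares were 17.8% and 15.9% over all genes, and 25.5% and 18.6% over genes of at least 4 CPM in both organs. The median of these stress genes was 0.37 (3 and 0 with the pairs summed, 3 and 3 when scaled by total counts). A positive one was Sel1l, of the degradation complex of the endoplasmic reticulum, at 0.24 in heart and -0.56 in liver. Amino acid breakdown and urea cycle genes had 7 positive and 8 negative differences among 48, close to the 17.8% and 15.9% over all genes (4 and 5 with the pairs summed, 5 and 10 when scaled by total counts), with Oat, ornithine aminotransferase, at 0.02 in heart and 1.17 in liver and Fah, the last enzyme of tyrosine breakdown, at 0.83 and -0.37. Mitochondrial carriers and their regulators had 8 positive and 6 negative differences among 27 (7 and 3 with the pairs summed). Gluconeogenesis genes had 4 and 1 among 13 (2 and 0 with the pairs summed). Both can be read beside the same 25.5% and 18.6%. Slc25a22, a glutamate carrier, rose by 1.17 in heart and had 0.02 in liver, and Pck2, the mitochondrial PEP carboxykinase, was at -0.40 and -1.18.

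Outside the lists, the largest positive differences included Neurl1b, a ubiquitin ligase of the Notch pathway, with 15.2, 15.2 and 14.6 CPM in ketogenic hearts and 18, 15.6 and 9.59 CPM in chow hearts, against 1.64, 1.48 and 0.953 CPM in ketogenic livers and 19.9, 25.9 and 22.2 CPM in chow livers (difference 4.12, SE 0.32, adjusted p = 2.63e-06 by edgeR). Chrna2, a nicotinic acetylcholine receptor subunit, had 24.9, 22.8 and 17.8 CPM in ketogenic hearts and 1.15, 1.71 and 0.810 CPM in chow hearts, against 16, 16.4 and 15.1 CPM in ketogenic livers and 10.4, 9.34 and 7.41 CPM in chow livers (difference 3.39, SE 0.28, adjusted p = 2.74e-06 by edgeR). Neurl1b was thus low in ketogenic livers, and Chrna2 high in ketogenic hearts. On the negative side Osbpl3, an oxysterol-binding protein relative, had 31.4, 33.0 and 33.0 CPM in ketogenic hearts and 31.6, 34.7 and 30.1 CPM in chow hearts, against 22.1, 20.6 and 37.5 CPM in ketogenic livers and 0.924, 0.858 and 2.27 CPM in chow livers. Only its livers differed (difference -4.29, SE 0.40, adjusted p = 2.28e-05 by edgeR). Gadd45g, a stress-induced gene, differed by 3.69 but varied from 3.70 to 30.1 CPM among chow livers, and the call was lost with the pairs summed (adjusted p = 0.0691 by edgeR, with 0.00021 to 0.142 over all alternatives).

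The genes called in the same direction in both organs whose smaller effect was largest were Tpx2, Arntl, Kif20a and Iqgap3, with positive differences of 1.74 to 1.89, and the histone gene Hist1h2bn, with a difference of -1.36. With the pairs summed, Kif20a and Hist1h2bn no longer passed (adjusted p = 0.0556 and 0.0926 by edgeR, with 0.000745 to 0.0787 and 0.00141 to 0.463 over all alternatives). With the length trend removed the difference of Hist1h2bn was -0.45 and did not pass (adjusted p = 0.463 by edgeR). Hist1h2bn also missed the threshold when any of several single libraries was left out. Tpx2, Kif20a and Iqgap3 act in mitosis or cytokinesis. Each of the 5 fell in both organs. The 4 with positive differences fell further in liver.

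A large part of the difference followed gene length. Among the 9060 genes of at least 4 CPM in both organs, the median difference was -1.27 for 104 genes of up to 500 bases of exon, -0.55 for 541 genes of 500 to 1000 bases and -0.14 for 1820 genes of 1000 to 2000 bases. It was 0.07, 0.15 and 0.28 for the 3 longer classes, which held 1988, 2741 and 1866 genes. Of the shortest class 71.2% had a called negative and 2.88% a called positive difference, and of the genes over 5000 bases 6.54% and 40.8%. The trend ran up with length in heart, with medians of -0.28 to 0.13, and down with length in liver, with medians of 0.79 to -0.17.

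The same trend was seen library by library. These values come from the same counts, so a diet response that follows length and an effect of the libraries cannot be told apart by them. The median deviation of genes of up to 1000 bases minus that of genes over 3000 bases, each taken from the mean of the organ, was -0.12, -0.14 and -0.08 in ketogenic hearts and 0.17, 0.07 and 0.12 in chow hearts. In livers it was 0.34, 0.41 and 0.09 on the ketogenic diet and -0.25, -0.26 and -0.32 on chow. The groups did not overlap in either organ, and ketogenic liver replicate 3 differed from the near-identical pair. The labels state an RNA integrity number above 4 without a value per sample, and the part of RNA quality or library preparation in this trend was not tested.

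**Figure D5:**
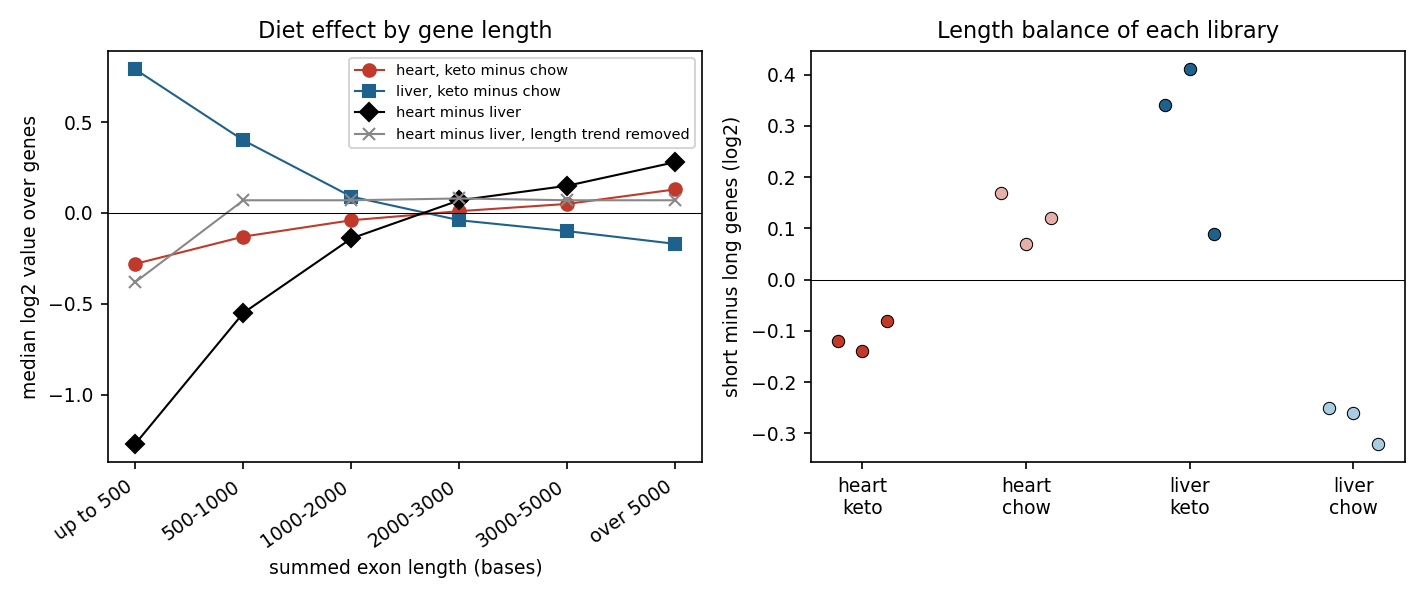
Left, median log2 effect over genes by summed exon length for heart, liver and their difference, with the difference after removing the length trend in grey; the difference runs from -1.27 in the shortest class to 0.28 in the longest. Right, the short minus long gene balance of each library, with ketogenic left of chow in each organ; ketogenic hearts and chow livers are under 0, chow hearts and ketogenic livers above it.

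Lists of short genes carry this trend. Of 79 genes of oxidative phosphorylation (median exon length 679 bases), 43 had a negative and 5 a positive difference, with a median of -0.49, and of 73 mitochondrial ribosome genes (1053 bases) 41 and 3, with a median of -0.41. With the pairs summed these counts were 32 and 0, and 28 and 0. With the length trend of each library removed, an alternative chosen after seeing the data, oxidative phosphorylation had 14 negative and 25 positive differences (median 0.20), so its direction turned, and the mitochondrial ribosome 17 and 13 (median -0.04). Atp5e, the epsilon subunit of ATP synthase, 414 bases long, had 315, 311 and 294 CPM in ketogenic hearts and 482, 409 and 408 CPM in chow hearts, against 299.9, 322 and 239 CPM in ketogenic livers and 70.9, 89.5 and 66.3 CPM in chow livers. Its groups moved apart without overlap, and its difference was -2.42 as measured and -1.52 with the trend removed. Mrpl41, a mitochondrial ribosomal protein gene of 2423 bases, was at -0.20 in heart and 1.38 in liver and had a difference of -1.58 as measured and -1.57 with the trend removed.

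Short non-coding RNAs were among the genes with the largest negative differences. Rpph1, the RNA of ribonuclease P, 325 bases long, had 1668, 1674 and 2109 CPM in ketogenic hearts and 4127, 3869 and 3601 CPM in chow hearts, against 12394, 12149 and 8024 CPM in ketogenic livers and 636, 2186 and 570.1 CPM in chow livers. It was lower in all ketogenic hearts, where the effect did not pass, and higher in all ketogenic livers, with chow livers widely spread (difference -4.35, SE 0.64, adjusted p = 0.000504 by edgeR). The small nucleolar RNA genes Snora74a and Snord17 and the Cajal body RNA gene Scarna6 differed by -5.38, -4.90 and -4.89. They passed with the trend removed as well, at -4.32, -3.88 and -3.88. Libraries made from messenger RNA catch such RNAs, which mostly lack a poly(A) tail, only in part.

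With the length trend removed, 4433 genes passed the difference, 2452 of them positive, and 3766 of the 4433 were among the 4886; 644 genes were opposite, 443 of them among the 786. With the trend removed the differences of Pdk4 (4.09), Acacb (3.12), Me1 (1.79), Bhlhe41 (-3.58) and Arntl (1.72) stayed close to those given before.

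Kidney libraries of mice on the same diets were no part of the comparison, and looking the opposite genes up in them was chosen after seeing the data. In a fit of all 18 libraries, 850 of 15495 genes were called higher (5.49%) and 813 lower (5.25%) in ketogenic than in chow kidneys. Of the 432 genes higher in heart and lower in liver, 51 were called higher (11.8%) and 10 lower (2.31%) in kidney. Of the 354 genes lower in heart and higher in liver, 8 were called higher (2.26%) and 18 lower (5.08%). Without ketogenic kidney replicate 1 the counts were 109 and 18, and 16 and 38, beside 1319 higher and 1123 lower of all 15698 genes. Me1, malic enzyme, had a kidney log2 fold change of 0.42 and Cenpf, a kinetochore protein, of -2.91, and both were called (adjusted p = 0.0381 and 0.000274 by edgeR). Pdk4 and Acacb, at 0.24 and -0.27, did not pass (adjusted p = 0.454 and 0.260 by edgeR).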

How the data were processed

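Stranded mRNA libraries were made from total RNA of heart and liver tissue, per the labels' protocols. The submitters' processing notes name bcl2fastq, HISAT2 2.1.0, SAMtools and featureCounts 1.5.0 and the mouse build mm9. The deposited values are estimated counts: per the file headers, the authors counted read pairs with featureCounts on UCSC mm9 genes, reversely stranded (setting 2), with a minimum mapping quality of 2, and shared reads that map or overlap more than once as fractions. Genes with a fractional count held 57.1% to 72.1% of a library, and counts were rounded, which changed a total by at most 0.000521%. Coordinates are the files' mm9 positions. Promoters come from RefSeq tables of GRCm38.p6, another build.

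Libraries were grouped by the labels' organ and diet. Genes were kept by filterByExpr and scaled by TMM over the 12 libraries, and a model of 4 group means was tested with edgeR 4.0.16 (quasi-likelihood, robust) in R 4.3.3, with Benjamini-Hochberg adjustment over all 14472 genes and a threshold of 0.05. DESeq2 1.42.0 and limma 3.58.1 (voom) were alternatives, with other scalings and filters, left-out libraries, replicate blocks and removal of a length trend by loess (span 0.4, chosen after seeing the data). In simulated counts of 14365 genes, 23.9%, 88.1% and 98.5% of organ differences of 1.5, 2 and 4-fold were recovered, with 2.1% false calls.

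Named genes were, at a mean of at least 4 CPM in each organ, the 10 largest opposite effects of each kind, the 8 largest positive and the 8 largest negative differences and the 5 strongest same-direction genes. They also included up to 4 members a list by adjusted p, at any level, and 15 fixed genes, of which not all are reported here. The members and lists were chosen with earlier results of these data known. Same-numbered heart and liver libraries of a diet did not deviate together (correlations of -0.0592 to 0.0768 over 6 pairs, and -0.0856 to 0.0563 over 12 differently numbered pairs), so numbers were not used as pairs.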

Additional observations from a re-analysis of the deposited data

Results flagged for a closer look

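The diet effect itself differed between the organs, by a test of that difference, in 4886 genes, and 786 genes were called in opposite directions. The genes with the largest opposite effects were picked out for the same reason, each by the tested difference of its log2 fold changes, heart minus liver. Those higher in ketogenic hearts and lower in ketogenic livers were Cenpf (5.80), Pdk4 (4.14), Acacb (3.39), Me1 (1.85), Mreg (1.79), Ablim1 (1.75), Tmem150a (1.64), Gpr56 (1.60), Clpx (1.54) and Pxmp4 (1.48). Those lower in ketogenic hearts and higher in ketogenic livers were Scarna10 (-4.96), Tpm2 (-3.51), Ifi27l2a (-3.08), Gng10 (-2.53), Lyz2 (-2.46), Hist2h4 (-2.41), Fgl2 (-2.31), Sulf1 (-2.25), Gpx1 (-2.18) and Ifi27l1 (-2.12). Without chow heart replicate 3 the heart effects of Cenpf, Lyz2 and Ifi27l1 did not pass (adjusted p = 0.0745, 0.105 and 0.0722 by edgeR). With the length trend removed the liver effect of Hist2h4 did not pass (adjusted p = 0.120 by edgeR). The tested differences of these 4 genes passed in both settings. With the near-identical pairs summed, 275 of the 786 genes were opposite. Whether the genes listed here were among them is not reported here.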

How the results depend on the processing

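In the alternatives that gave a value (29 for most named genes, 28 for Cfd, Cidec, Bdh2, Cps1, Fga and Stab2 and 27 for S100a9), no called difference of a named gene changed its sign. With the near-identical pairs summed, 3167 genes differed and 275 were opposite, and without chow heart replicate 3 as well 3759 and 372. A test against a 1.5-fold difference left 1071 genes and 13 opposite ones, and an adjusted p under 0.1 gave 1228 opposite genes. Leaving out 1 library at a time gave 3893 to 5145 differing and 405 to 1015 opposite genes; the cause was not tested. The replicate number as a block gave 4715 and 704 genes and a block by mouse 4448, although the numbers were not found to pair the libraries. DESeq2 called 5056 genes and limma-voom 4576. With n = 2 in each ketogenic group after the pairs are merged, the spread of ketogenic samples rests on few libraries. Small differences were often missed in data simulated with 3 separate libraries per group, and the case of n = 2 was not simulated.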
